A study of Homo sapiens with 6 samples.

Results

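The cytosolic ribosomal protein genes encode the proteins of the small (40S) and large (60S) subunits of the cytoplasmic ribosome. They were taken as the protein-coding genes whose symbol is RPL or RPS followed by a number, with or without a final A or X, together with RPLP0, RPLP1, RPLP2 and RPSA. This gave 77 genes, 31 of the 40S and 46 of the 60S subunit, of 62754 genes in the deposited table. All 77 had enough counts to be tested, and each is annotated as protein-coding by RefSeq. RNA came from HEK293 cells, an adherent human embryonic kidney line, and the sample labels give HEK293T, its derivative carrying the SV40 large T antigen. There were 3 libraries of control cells and 3 of FAM60A-knockout cells, both grown in DMEM with serum. Knockout cells had received Cas9 and guide RNAs directed at several parts of FAM60A and were kept under puromycin as a pool, so they were not 1 clone. FAM60A belongs to the SIN3-HDAC complex, which removes acetyl groups from histones. No source used here says whether the libraries of a group came from separate cultures, so p-values measure the spread between these libraries, which may be technical.

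Ribosomal proteins assemble with ribosomal RNA in the nucleolus, largely in equal numbers per ribosome, and surplus free protein is degraded. Most of their mRNAs begin with a C followed by a run of pyrimidines, the 5′ terminal oligopyrimidine (TOP) tract, through which mTORC1 and LARP1 control their translation. Proliferating cell lines such as HEK293 make large amounts of these mRNAs. The genes have left many processed pseudogenes in the human genome, which are intronless copies of the mRNA.

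The start regions of the genes are shown first because the tract was the feature most of them shared. RefSeq start sites (GRCh38.p14) were at hand for 62 of the 77 genes. A C followed by at least 4 pyrimidines, beginning within 5 bases of an annotated start, was present at a start of 53 of these 62 genes (85.5%), against 6886 of 27305 genes in the whole table (25.2%). It was absent from the listed starts of RPS26, RPS29, RPL27, RPL9, RPL15, RPL6, RPL17, RPS4X and RPS15. Each line gives 10 bases before and 20 from an annotated start, 5′ to 3′ on the gene's strand, with the tract in capitals.
RPL21 (chr13:27251548-27251577, plus strand): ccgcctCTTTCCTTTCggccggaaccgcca
RPL39 (chrX:119791611-119791640, minus strand): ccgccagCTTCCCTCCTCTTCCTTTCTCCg
RPL34 (chr4:108620566-108620595, plus strand): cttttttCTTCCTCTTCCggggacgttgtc
RPL11 (chr1:23691769-23691798, plus strand): cctggcccataaggCCCTCggccggaagct
RPS14 (chr5:150449720-150449749, minus strand): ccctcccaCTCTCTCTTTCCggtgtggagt
RPS16 (chr19:39435930-39435959, minus strand): ccctagCTTTCCTTTTCCggttgcggcgcc
RPS19 (chr19:41860245-41860274, plus strand): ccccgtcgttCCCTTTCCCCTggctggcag
RPLP0 (chr12:120201092-120201121, minus strand): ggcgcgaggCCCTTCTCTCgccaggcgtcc
RPL10 (chrX:154398367-154398396, plus strand): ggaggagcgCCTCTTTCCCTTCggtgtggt
RPL13 (chr16:89560672-89560701, plus strand): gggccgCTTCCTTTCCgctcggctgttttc

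Among the 300 bases around a start, CCGGAA, searched on both strands, a core bound by ETS factors, occurred in 35 of the 62 genes (56.5%) and in 20.1% of all genes in the table. TATAAA, searched on both strands, occurred in 5 of the 62 (8.06%) and in 14.0% of all genes. CCGGAA can share bases with the tract, since TTCCGG is the same motif on the other strand, as at the ends of the tracts of RPL34, RPS14 and RPS16. AAGATGGC, searched on both strands, which matches the core of the YY1 site, was found in 6 (9.68%) against 3.52%. The tract was present both in genes called higher in knockout cells and in genes that were not. Of the 53 genes with a tract, 6 were called higher (11.3%) and 0 lower by edgeR, with a median log2 fold change of 0.14. Among these 53, 17 had an unadjusted p under 0.05, and DESeq2 called 8 higher and 1 lower. Of the 9 genes listed without a tract, 2 were called higher (22.2%) and 1 lower (11.1%), with a median of 0.03. Of all 20992 genes tested, edgeR called 7.96% higher and 8.67% lower. Without control replicate 3, described below, 30 of the 53 were called higher (56.6%) and 8 lower (15.1%). Of the 9, 3 were then called higher (33.3%) and 1 lower (11.1%), against 32.4% and 33.2% of all genes tested.

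Total counts per library lay between 88361827 and 93346824. Values are given as CPM, the counts of a gene per 1000000 counts of its library after scaling by edgeR's TMM factors. The targeted gene, listed under its current symbol SINHCAF, was counted 11028, 10165 and 12792 times in control cells, against 5684, 5793 and 5449 times after knockout, and fell by 0.85 on the log2 scale (SE 0.11, edgeR adjusted p = 0.00863). Control replicate 3 stood apart from the other controls. The median absolute log2 difference over the 77 genes was 0.17 between control replicates 1 and 2 and 0.09 to 0.14 between knockout libraries. It was 0.41 and 0.33 between control replicate 3 and control replicates 1 and 2, but 0.27 to 0.32 between control replicate 3 and the knockout libraries. Over all genes tested the median was 0.14 between control replicates 1 and 2 and 0.11 to 0.14 between knockout libraries. For control replicate 3 it was 0.51 and 0.49 against control replicates 1 and 2, and 0.38 to 0.41 against the knockout libraries. The distance of this library was thus not particular to the 77 genes. Of markers reported for HEK293 cells, all 7 were detected and fitted lower after knockout with all 6 libraries, with 1, NEFM, called. With control replicate 3 left out, 5 of the 7 were called lower, against 33.2% of all genes tested. NEFL at 0.10 and PAX2 at 0.29 on the log2 scale then fitted higher and were not called. The summed level of the 7 markers was 1636, 1688 and 918 CPM in control replicates 1 to 3, against 742 to 881 CPM after knockout. PAX2 stood at 144, 161 and 577 counts in control cells, against 164 to 182. Of the markers of other cell types, PTPRC, ALB and HBB had at most 9 counts in any library, with HBB at 0 in 5 of 6 libraries, and PECAM1 was not analysed here. DCN was called higher, at 0, 1 and 1 counts against 30 to 33, and COL1A1 lower, at 1854 to 2526 counts against 1145 to 1401. The summed level of this list was 19.3 to 26.4 CPM against 14.0 to 16.5 CPM. Nearly all of it was COL1A1, at 19.2 to 26.3 CPM against 13.6 to 16.0 CPM. The part of these differences in the results below was not tested. Counts of calls among the 77 genes and the gene lists compared below are given with and without control replicate 3.

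The 77 genes took up 5.29, 5.79 and 7.40% of a control library's counts, in the order of replicates 1 to 3, against 6.35, 6.20 and 5.996% after knockout. The knockout values lay within the range of the controls. The means were 6.16% ± 1.105 and 6.18% ± 0.177 (SD, n = 3 each), a difference of 0.02 percentage points. Without control replicate 3 the control mean was 5.54% and the difference 0.64 percentage points. Mitochondrially encoded genes took 4.72% ± 0.804 of control and 9.31% ± 0.703 of knockout counts (SD, n = 3), and with them left out of the total the difference was 0.34 percentage points. The 60S genes held 55.3, 55.3 and 56.3% of the 77 genes' counts in the controls, against 53.6, 53.5 and 54.5% in the knockout libraries. These 60S parts did not overlap between the groups, and the difference of the means, knockout minus control, was -1.74 percentage points. In bulk RNA a smaller number of cells with high levels and a lower level in every cell cannot be told apart.

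**Figure D1:**
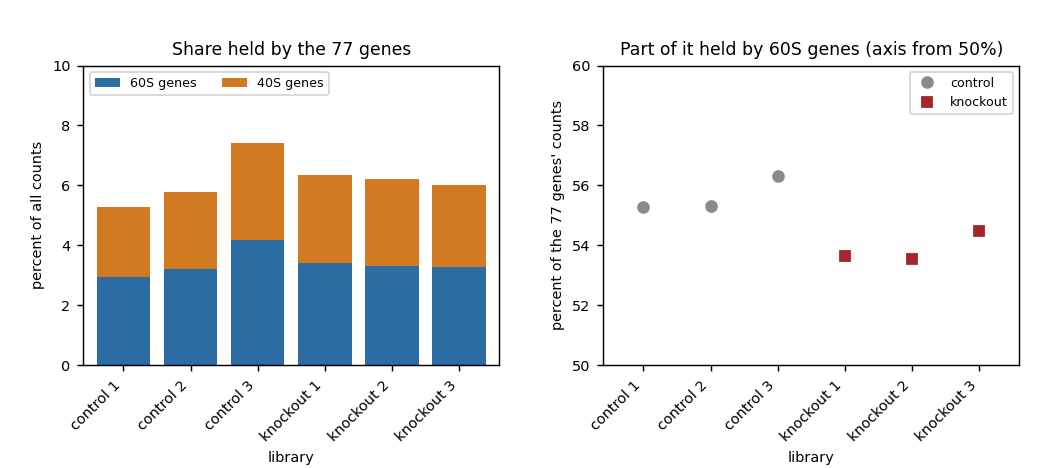
Left, percent of all counts held by 60S (blue) and 40S (orange) ribosomal protein genes in each library. Right, percent of those genes' counts held by 60S genes, on an axis from 50%, in control (grey circles) and knockout (red squares) libraries. Control 3 has the largest share, at 7.40%, and the 60S part is 55.3 to 56.3% in controls against 53.5 to 54.5% in knockout libraries.

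Levels between genes were compared per kilobase, dividing CPM by the length of the coding sequence plus 50 transcript bases on each side. Transcript bases beyond these were left out of the length, though their reads may be in the counts. A gene with longer ends can therefore appear higher. Control means ran from 7.30 to 3345 CPM per kilobase, with a median of 1160.5. RPS4X, whose protein lies on the small subunit and whose gene is X-linked, was the highest at 3345 ± 462 CPM per kilobase in control and 3424 ± 269 in knockout cells (SD, n = 3 each). RPS19, the gene most often mutated in Diamond-Blackfan anaemia, followed at 3325 ± 1334 and 4209 ± 157. RPS18, a protein of the 40S head, was at 3294 ± 264 and 2965 ± 131. These neighbours in the order of control levels did not differ beyond their spread. The lowest were RPS10 at 7.30 ± 3.28 and 8.75 ± 0.728, RPL36A at 26.2 ± 4.10 and 42.2 ± 6.42, and RPL21 at 30.6 ± 2.29 and 67.0 ± 3.63 CPM per kilobase. The lowest 3 control means were separated from the highest 3 by far more than their spread.

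**Figure D2:**
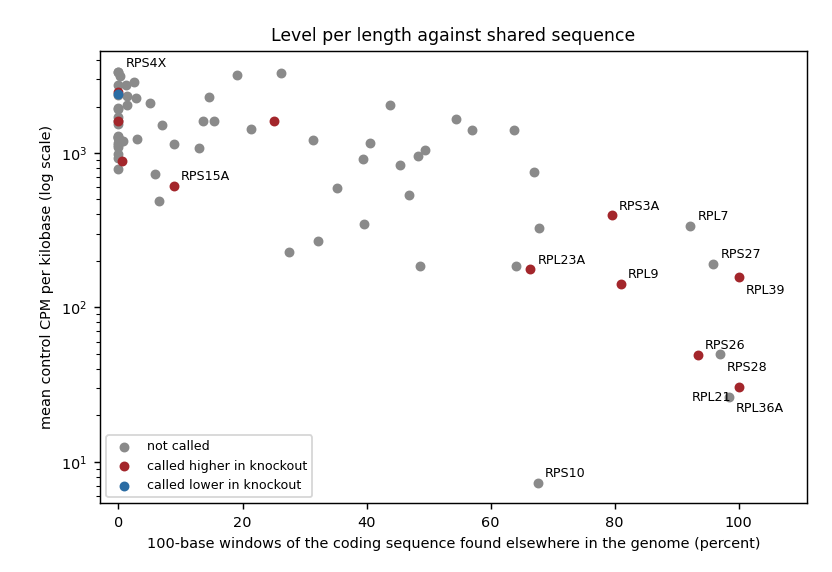
Mean control CPM per kilobase (log scale) of 75 of the 77 genes against the percent of 100-base windows of each coding sequence that occur letter for letter elsewhere in the genome. Genes called higher in knockout cells are red, the gene called lower is blue and the others are grey. The genes with over 90% of windows elsewhere lie low, down to 26.2 CPM per kilobase for RPL36A, and RPS10 lies lowest.

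The genes with most shared sequence had lower median levels. A read from a stretch that occurs in several places cannot be assigned by its sequence alone, and the sources used here do not state how reads matching several places were counted. For each gene, every window of 100 bases in its coding sequence plus 50 bases on each side was looked up in the human genome (GRCh37). The paper reports paired reads longer than these windows, so a window found elsewhere need not make its reads ambiguous. In 16 genes at least 60% of windows were found elsewhere, and their median control level was 167 CPM per kilobase. In the 19 genes with 20 to 60% of windows elsewhere the median was 955, and in the 42 genes with fewer it was 1605. All windows of RPL39 and RPL21 had a copy elsewhere, as had 98.4% for RPL36A, 96.9% for RPS28, 95.9% for RPS27 and 93.4% for RPS26. For 22 genes, RPS29, RPL11 and RPS14 among them, no window had one. A second feature was overlap with other genes on the same strand, which covered over 40% of the exon bases of 7 genes. RPS10 shared 84.3% of its exon bases with the readthrough gene RPS10-NUDT3 and RPL36A 82.4% with RPL36A-HNRNPH2.

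The coding sequences of RPL39, a small protein at the exit of the peptide tunnel, and RPS29, a zinc-binding protein of the 40S head, show the extremes. They were read from the GENCODE transcript models, with start and stop codons in capitals. All 157 windows of RPL39 were found elsewhere, at 2 places in the genome, and 0 of the 156 windows of RPS29.
RPL39: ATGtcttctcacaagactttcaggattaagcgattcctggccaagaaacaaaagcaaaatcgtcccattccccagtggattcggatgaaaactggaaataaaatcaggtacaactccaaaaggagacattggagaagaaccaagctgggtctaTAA
RPS29: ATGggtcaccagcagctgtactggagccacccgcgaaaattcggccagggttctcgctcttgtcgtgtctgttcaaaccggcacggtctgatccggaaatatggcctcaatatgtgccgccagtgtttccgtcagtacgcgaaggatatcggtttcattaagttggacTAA

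Knockout was compared with control to ask which ribosomal protein mRNAs differ in FAM60A-knockout cells. With all 6 libraries, edgeR's quasi-likelihood test called 12 of the 77 genes at an adjusted p of at most 0.05 (15.6%), against 16.6% of the 20992 genes tested. The members' share was thus close to the background. Of these, 11 were higher in knockout cells (14.3% of the members, against a background of 7.96%) and 1 was lower (1.30%, against 8.67%). The calls were RPL21, RPL39, RPS15A, RPS26, RPL34, RPL9, RPL37, RPL11, RPS23, RPS3A and RPL23A higher, and RPL27 lower. The median log2 fold change over the 77 genes was 0.14, against -0.01 over all genes tested, and 50 genes fitted higher and 27 lower. Scaling by library size without TMM moved the median of all genes to -0.12 and that of the members to 0.03. The split of calls then became 9 higher and 6 lower, and with quantile normalization 10 higher and 7 lower. Without the mitochondrially encoded genes it was again 11 higher and 1 lower.

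**Figure D3:**
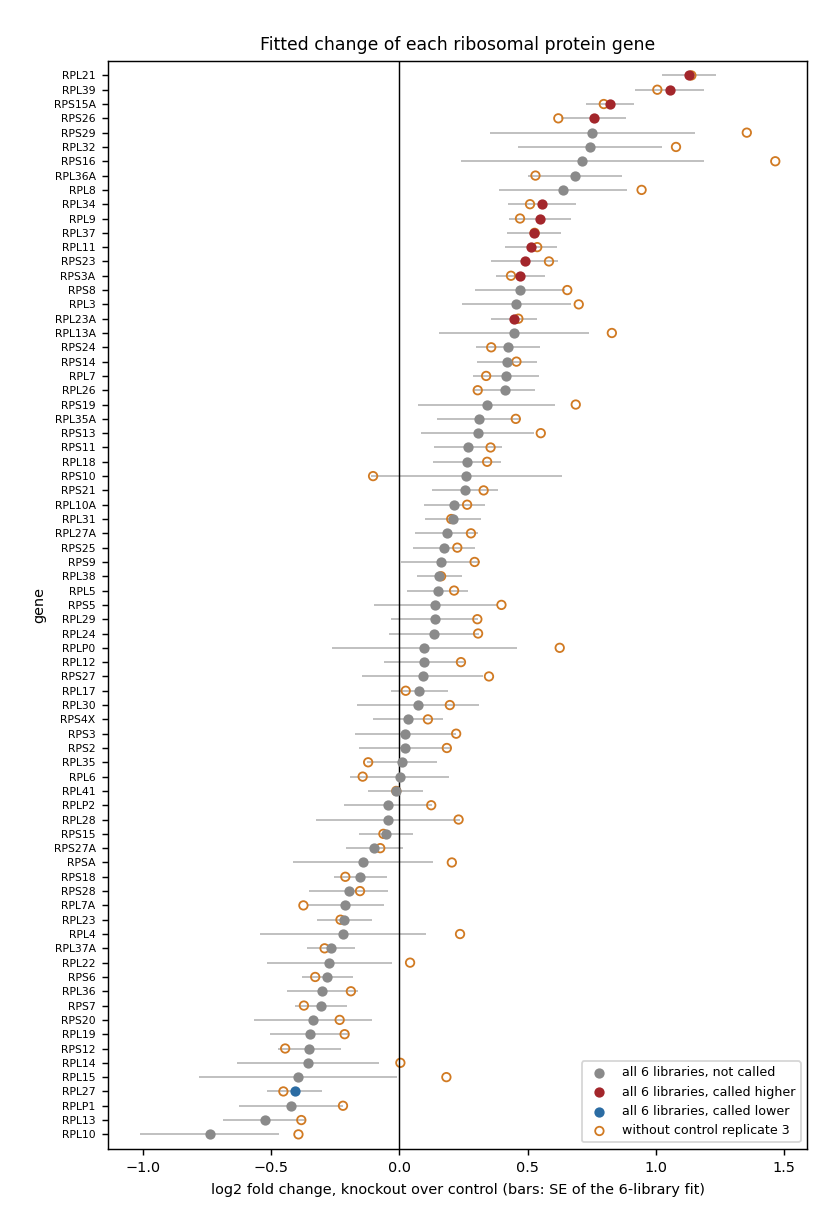
Log2 fold change of knockout over control for 75 of the 77 genes, ranked, with its standard error (grey bars). Filled points are the fit of all 6 libraries (red called higher, blue called lower, grey not called) and open orange circles the fit without control replicate 3. RPL21 lies highest at 1.13 and RPL10 lowest at -0.74, and the open circles of RPS16 and RPS29 lie far to the right of their filled points.

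RPL21 (chr13:27251558-27256568, GRCh38.p14, as are the positions that follow), a protein of the large subunit, showed the largest rise. Its values were 15.9, 17.9 and 18.3 CPM in the controls, against 38.9, 35.6 and 39.3 CPM in the knockout libraries. The groups were far apart and the controls close together. The log2 fold change was 1.13 (SE 0.11, edgeR adjusted p = 0.00399), and RPL21 was the only gene of the 12 called in each of the 6 fits that left out 1 library. With the counts of its pseudogenes added, however, its log2 fold change was 0.13 and the call was lost, as described below. RPL39 (chrX:119786504-119791630) had 34.5, 46.6 and 39.1 CPM against 85.9, 76.5 and 87.3 CPM. The fitted log2 fold change was 1.05 (SE 0.13, edgeR adjusted p = 0.00832). RPS15A (chr16:18781295-18790334), a protein of the small subunit, had 298, 306 and 307 CPM in the controls, against 576, 497 and 534 CPM in the knockout libraries. It rose by 0.82 on the log2 scale (SE 0.09, edgeR adjusted p = 0.00632), with controls that hardly differed. RPS26 (chr12:56041918-56044697), which lies at the mRNA exit channel and is mutated in some patients with Diamond-Blackfan anaemia, had 22.7, 25.0 and 18.7 CPM against 37.2, 37.1 and 38.0 CPM. RPS26 rose by 0.76 on the log2 scale (SE 0.13, edgeR adjusted p = 0.0156).

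The other genes called higher changed by less. RPL11, which with RPL5 and 5S rRNA binds MDM2 when ribosome assembly is disturbed, had 891, 977 and 1044 CPM in the controls, against 1446, 1339 and 1371 CPM in the knockout libraries. RPL11 rose by 0.51 on the log2 scale (SE 0.10, edgeR adjusted p = 0.0236). RPL34 had 355, 428 and 379 CPM against 615, 487 and 605 CPM, and RPL37 had 889, 955 and 985 CPM against 1375, 1244 and 1454 CPM. In both the lowest knockout library was above the highest control. RPL9 had 86.9, 108 and 88.3 CPM against 144, 126 and 143 CPM, and RPL23A had 94.0, 92.0 and 102 CPM against 139, 127 and 127 CPM. RPS3A had 349, 341 and 341 CPM against 515, 435 and 480 CPM, and RPS23, a protein of the decoding centre, had 745, 761 and 958 CPM against 1219.6, 1087 and 1152 CPM. The log2 fold changes of these 6 genes lay between 0.45 for RPL23A and 0.56 for RPL34, with edgeR adjusted p from 0.0233 for RPL37 to 0.04998 for RPS23. RPL27, the 60S gene called lower (chr17:42998273-43002959), had 1106, 1325 and 1182 CPM in the controls, against 945, 869 and 909 CPM in the knockout libraries. It fell by 0.41 on the log2 scale (SE 0.11, edgeR adjusted p = 0.0472).

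**Figure D4:**
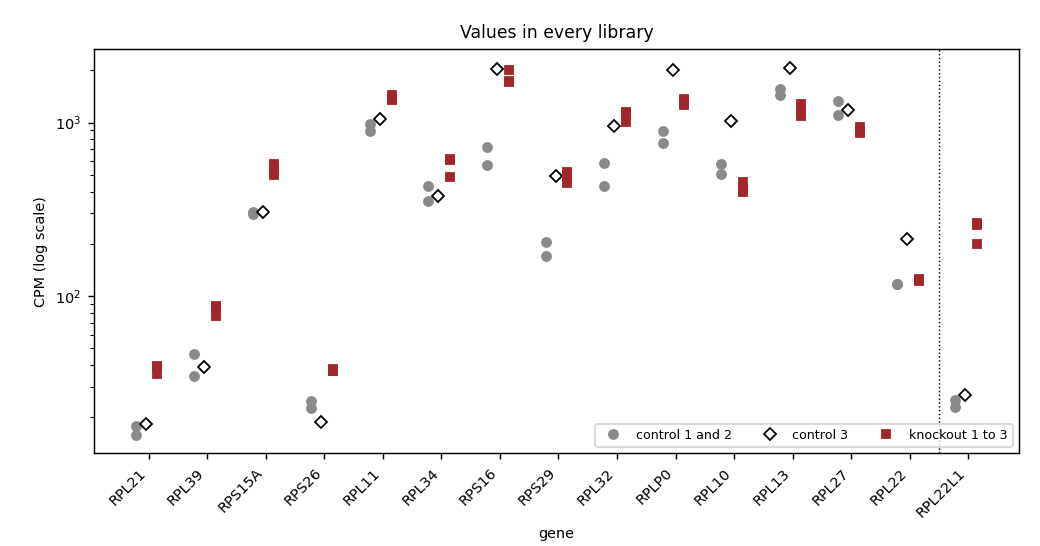
CPM (log scale) of 14 ribosomal protein genes and of the paralogue RPL22L1, right of the dotted line, in control 1 and 2 (grey circles), control 3 (open diamonds) and the 3 knockout libraries (red squares). Control 3 lies with the other controls for RPL21, RPL39, RPS15A, RPL11, RPL34 and RPL27, and far above them for RPS16, RPS29, RPLP0 and RPL10.

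These calls depended on single libraries. Leaving out control replicate 1 left 3 of the 12, control replicate 2 left 5, and knockout replicates 1, 2 and 3 left 1, 3 and 1. Calls over all genes also fell, from 16.6% to 4.89% and 3.71% without control replicates 1 and 2, and to 0.763, 2.31 and 0.87% without knockout replicates 1, 2 and 3. RPL39 and RPS15A were called in 4 of these 6 fits and RPS26 and RPL9 in 2, while the other 7 beside RPL21 were called only without control replicate 3. Over all 17 alternatives the 12 genes kept the direction of their fitted change, also where the call was lost. In 21 genes every knockout library was above every control (27.3%, against a background of 21.5%), and in 11 every knockout library was below (14.3%, against 20.1%). The 11 were RPL10, RPL13, RPL27, RPS12, RPL19, RPS7, RPL36, RPS6, RPL37A, RPL23 and RPS18.

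When control replicate 3 was omitted, edgeR called 53 of the 77 genes (68.8%), against 65.6% of 21686 genes tested. This share again lay close to the background. Of the 53, 42 were higher (54.5%, against 32.4%) and 11 lower (14.3%, against 33.2%), and all 12 calls of the 6-library fit were among them. The median log2 fold change of the members was 0.24, while that of all genes was -0.002. The genes lower in knockout cells included RPL27, RPS12, RPL10, RPL13, RPL7A, RPS7, RPS6, RPL37A, RPL23 and RPL19. Control replicate 3 was at least 1.5-fold above the mean of control replicates 1 and 2 in 21 of the 77 genes (27.3%, against 25.0% of all genes tested), and at least 1.5-fold below it in 2 (2.60%, against 18.2%). It lay above every knockout library in 38 genes (49.4%, against 41.5% of all genes tested), below every knockout library in 25 (32.5%, against 40.9%) and among them in 14.

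**Figure D5:**
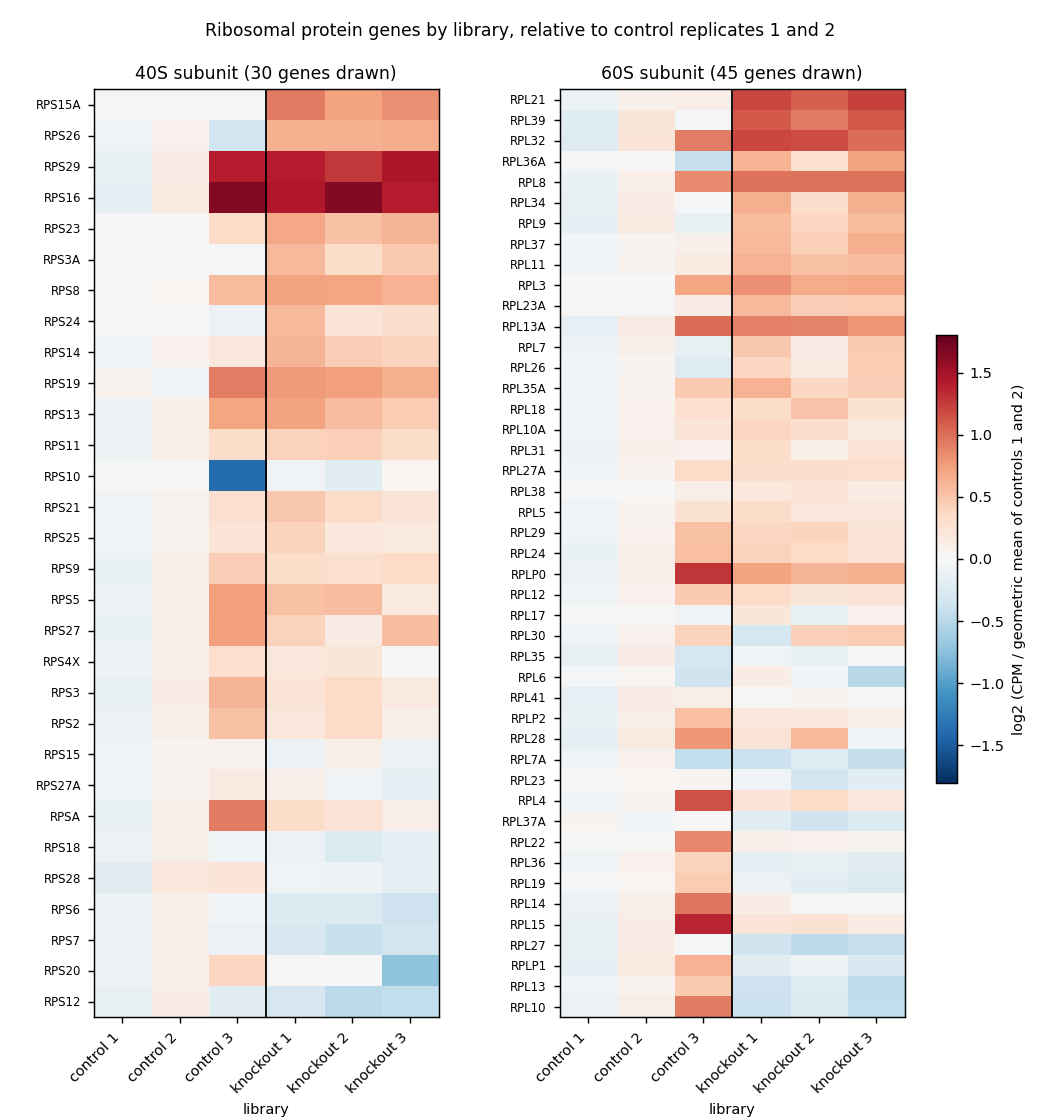
Log2 ratio of CPM to the geometric mean of control replicates 1 and 2 for 30 genes of the 40S and 45 of the 60S subunit (rows, ordered by the 6-library fold change) in each library (columns, controls left of the line). Red is higher and blue lower. Control 3 is as red as the knockout libraries for RPS16 and RPS29, redder than them for RPL15 and RPL4, and blue for RPS10.

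RPS16, RPS29 and RPL15 were the genes furthest above the other controls in control replicate 3. RPS16, whose C-terminal tail reaches the tRNA in the small subunit, had 572, 721 and 2045 CPM in the controls, against 1742, 2014 and 1717 CPM in the knockout libraries. Control replicate 3 thus lay above the knockout libraries. The log2 fold change was 0.71 (SE 0.47, edgeR adjusted p = 0.328), and 1.47 (SE 0.11) without that library, where it was called. RPS29 had 169, 204 and 495 CPM against 497, 451 and 515 CPM. The fit gave a log2 fold change of 0.75 (SE 0.40, edgeR adjusted p = 0.232) and 1.35 without control replicate 3, where it was called. RPL15 had 597, 718 and 1695 CPM against 770, 794 and 724 CPM, with log2 fold changes of -0.40 (SE 0.39) and, without that library, 0.18 (SE 0.09), neither of them called. RPL32 had 429, 587 and 949 CPM against 1151, 1129.7 and 1008 CPM, with log2 fold changes of 0.74 (edgeR adjusted p = 0.12) and 1.08, called only in the latter fit. The genes below the other controls in control replicate 3 included RPS10, whose difference was as large as that of RPL15. RPS10 had 5.44, 5.34 and 2.06 CPM against 5.14, 4.70 and 5.55, and RPL7A had 829, 916 and 644 CPM against 670, 746 and 649. In both genes control replicate 3 was below all knockout libraries.

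The 6 lowest fitted log2 fold changes were all of 60S genes. RPL10 (chrX:154398065-154402339), whose protein joins the large subunit late in the cytoplasm, had 503, 579 and 1027 CPM in the controls, against 411, 454 and 397 CPM in the knockout libraries. No knockout library reached the lowest control. Its log2 fold change was -0.74 (SE 0.27, edgeR adjusted p = 0.11), and -0.39 without control replicate 3, where it was called. RPL13 had 1442, 1559 and 2075 CPM against 1157, 1277 and 1095 CPM, a log2 fold change of -0.52 (SE 0.16, edgeR adjusted p = 0.0731), and of -0.38 without that library, where it was called. RPLP1, RPL27 and RPL15 were also among the 6.

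The P-stalk, made of RPLP0 and dimers of RPLP1 and RPLP2, recruits the translation factors that hydrolyse GTP. RPLP0 had 763, 892 and 2004 CPM in the controls, against 1361, 1262 and 1291 CPM in the knockout libraries. RPLP1 had 927, 1156 and 1591 CPM against 908, 973 and 860 CPM, and RPLP2 had 343, 405 and 540.2 CPM against 423, 423 and 403 CPM. In all 3, control replicate 3 was the highest library. Their log2 fold changes were 0.10 (SE 0.36), -0.42 (SE 0.20) and -0.04 (SE 0.17), with edgeR adjusted p of 0.873, 0.192 and 0.88. In the fit omitting control replicate 3, RPLP0 was called higher at 0.63, while RPLP1 at -0.22 and RPLP2 at 0.12 were not called.

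Of the other 60S proteins, RPL5 had 1352, 1469 and 1700 CPM against 1765, 1619 and 1629 CPM, and its log2 fold change of 0.15 (edgeR adjusted p = 0.415) was smaller than that of its partner RPL11. Without control replicate 3, RPL5 was called higher at 0.21. The difference between the partners was not tested. RPL23 and RPL26 are also reported to bind MDM2. RPL23 had 1477, 1553 and 1567 CPM against 1443, 1191 and 1326 CPM, and RPL26 had 123, 131 and 108 CPM against 165, 142 and 173 CPM. The 2 pointed in opposite directions without overlap, at -0.22 (edgeR adjusted p = 0.209) and 0.41 (adjusted p = 0.0637), and both were called without control replicate 3. Pseudogenes held 77.1% of the summed control counts of RPL26, and with them added its log2 fold change was 0.15 (SE 0.11), not called, and the sums of 493 to 567 CPM in control cells and 527 to 612 CPM after knockout overlapped. RPL13A, known also for silencing inflammatory transcripts, had 483, 587 and 1067 CPM against 1001, 990.3 and 922 CPM. The fit gave 0.45 on the log2 scale (edgeR adjusted p = 0.319), and 0.83 without control replicate 3, where it was called. RPL41, the smallest of the proteins, had 261, 318 and 310.0 CPM against 291, 302 and 287 CPM, a log2 fold change of -0.01 (SE 0.11).

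Of the 40S proteins, RPSA, also known as a laminin receptor, had 524, 617 and 1085 CPM in the controls, against 716, 680 and 620 CPM in the knockout libraries (log2 fold change -0.14, SE 0.27). RPS3, at the mRNA entry, had 1011, 1211 and 1687 CPM against 1302, 1425 and 1245 CPM. RPS4X had 2599, 2934 and 3419 CPM against 3168, 3216 and 2779 CPM. In these 3 genes the groups overlapped and control replicate 3 was the highest library. RPS6, the substrate of S6 kinase, had 1563, 1761 and 1606 CPM against 1400, 1380 and 1279 CPM, without overlap (log2 fold change -0.28, SE 0.10, edgeR adjusted p = 0.102). RPS14, whose loss marks the 5q deletion syndrome, had 1349, 1512 and 1639 CPM against 2180.5, 1946 and 1892 CPM, also without overlap and in the other direction (0.42, SE 0.12, edgeR adjusted p = 0.058). RPS19 had 1392, 1283 and 2542 CPM against 2264, 2231 and 2108 CPM, a log2 fold change of 0.34 (edgeR adjusted p = 0.409), and of 0.69 without control replicate 3, where it was called. RPS27 had 49.1, 57.7 and 88.9 CPM against 71.0, 59.2 and 78.2 CPM, and RPS18 had 1712, 1975 and 1738 against 1702, 1558 and 1624 CPM. With control replicate 3 left out, RPS3, RPS14 and RPS27 were called higher and RPS6 lower, while RPSA, RPS4X and RPS18 were not called. Over the subunits, 4 of 31 40S genes were called higher (12.9%) and 0 lower by edgeR. Of 46 60S genes 7 were called higher (15.2%) and 1 lower (2.17%), against 7.96% and 8.67% of all genes tested. The median log2 fold changes of the 40S and 60S genes were 0.16 and 0.12. Of the 40S genes 10 had an unadjusted p under 0.05, and DESeq2 called 0 of them lower. When control replicate 3 was omitted, 18 of the 40S genes were called higher (58.1%) and 4 lower (12.9%). Of the 60S genes 24 were then higher (52.2%) and 7 lower (15.2%), against 32.4% and 33.2% of all genes tested.

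Several of the genes called higher with all 6 libraries were among those with most shared sequence. Of the 16 genes with at least 60% of windows elsewhere, 6 were called higher (RPL21, RPL39, RPS26, RPL9, RPS3A and RPL23A), with a median log2 fold change of 0.34. Of the 19 with 20 to 60%, 1 was (RPS23), with a median of 0.02. Of the 42 with fewer, 4 were called higher (RPL11, RPL34, RPL37 and RPS15A) and 1 lower, with a median of 0.15. The shares called higher were 37.5, 5.26 and 9.52%, against 7.96% of all genes tested. In the fit omitting control replicate 3, the calls were 9 higher and 0 lower of 16, 9 and 4 of 19, and 24 and 7 of 42. The shares called higher then lay closer together, at 56.25, 47.4 and 57.1%, against 32.4% of all genes tested. Those called lower were 0, 21.1 and 16.7%, against 33.2%. The table held 1585 pseudogenes named after the 77 genes, from 1 to 133 per gene with a median of 14. Their counts summed to 1.76, 1.94 and 2.53% of all counts in control cells, against 2.40, 2.19 and 2.26% in the knockout libraries. In 19 genes the pseudogenes together held more counts than the gene itself in the control mean. With all 6 libraries, 75 of 269 pseudogenes with enough counts were called higher and 8 lower (30.9% called, against 16.6% of all genes tested). Over all genes tested 7.96% were called higher and 8.67% lower. Pseudogene calls were not counted without control replicate 3.

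RPL21 and its 133 pseudogenes differed between the groups in opposite directions. The pseudogenes together had 41.5, 43.2 and 51.7 CPM in the controls, against 32.6, 29.2 and 30.1 CPM in the knockout libraries, lower where RPL21 itself was higher. With the pseudogene counts added to the gene, the sums were 57.4, 61.1 and 70.0 CPM in the controls, against 71.5, 64.7 and 69.4 CPM in the knockout libraries. These sums overlapped between the groups. The log2 fold change of RPL21 then was 0.13 (SE 0.11, edgeR adjusted p = 0.43), so the call ended, whereas over the other alternatives RPL21 was called throughout. RPL23A also lost its call on the sum, at 0.26 (SE 0.10). The pseudogenes of RPL39 were higher after knockout, as was the gene. They had 742, 876 and 909 CPM in the controls, far above the gene's own values, and 1820, 1348 and 1776 CPM in the knockout libraries. On the sum RPL39 was still called higher, at 0.97 (SE 0.15). RPS26, whose pseudogenes had 1.11 to 1.19 CPM in the controls and 6.13 to 6.68 in the knockout libraries, was called on the sum at 0.91 (SE 0.12). RPS15A, RPL11, RPL34, RPL37, RPL9, RPS3A, RPS23 and RPL27 kept their calls as well. RPL36A, with 11.4, 11.7 and 8.69 CPM against 17.9, 14.1 and 19.1 CPM, just missed the threshold on its own counts (0.69, SE 0.18, edgeR adjusted p = 0.0509). Its pseudogenes held 98.8% of the summed control counts, and the sum gave 0.53 (SE 0.15), also not called.

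Small nucleolar RNAs (snoRNAs), which guide chemical modification of ribosomal RNA, lie inside 29 of the 77 genes. Of these 29 hosts 5 were called higher (17.2%) and 0 lower by edgeR, with a median log2 fold change of 0.08. Among the hosts 11 had an unadjusted p under 0.05, and DESeq2 called 1 lower. Of the 48 genes without a snoRNA, 6 were called higher (12.5%) and 1 lower (2.08%), with a median of 0.15. Over all genes tested 7.96% were called higher and 8.67% lower. Without control replicate 3, the calls were 16 higher (55.2%) and 6 lower (20.7%) among hosts. Among the others they were 26 (54.2%) and 5 (10.4%), against 32.4% and 33.2% of all genes tested. RPL21, RPL39, RPL23A, RPS3A and RPL37 were the hosts called higher, and RPL10 and RPL13, with the lowest fitted log2 fold changes, are hosts as well.

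RPL22L1, a paralogue of RPL22 that can take its place in the ribosome, had a larger fitted change than any of the 77 genes. RPL22 had 118, 117 and 213 CPM in the controls, against 125, 123 and 123 CPM in the knockout libraries, level with control replicates 1 and 2. Its log2 fold change was -0.27 (SE 0.24, edgeR adjusted p = 0.466), and 0.042 (SE 0.07) without control replicate 3, not called in either fit. RPL22L1 had 22.8, 25.1 and 27.0 CPM in the controls, against 262, 199.8 and 255 CPM in the knockout libraries, a 9.57-fold rise (log2 fold change 3.26, SE 0.15, edgeR adjusted p = 0.000566). Control replicate 3 lay with the other controls here, and the value without it was 3.29. Of the 7 paralogues tested, RPL26L1 was the other called higher, from 72.2 ± 8.31 to 99.8 ± 9.43 CPM (SD, n = 3; log2 fold change 0.47, edgeR adjusted p = 0.04998), and the median of the 7 was 0.37. With control replicate 3 left out, 5 of the 7 were called higher and 1 lower, against 32.4% and 33.2% of all genes tested. FAU and RACK1 encode ribosomal proteins under other names. FAU was at 0.30 on the log2 scale (SE 0.11, edgeR adjusted p = 0.108) and RACK1 at 0.42 (SE 0.19, edgeR adjusted p = 0.179), so neither was called. When control replicate 3 was omitted, both were called higher, at 0.36 and 0.60.

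Other genes of translation and ribosome production were compared in the same fit. Over all genes tested 7.96% were called higher and 8.67% lower, and without control replicate 3, 32.4% and 33.2%. Of 16 other TOP mRNAs, 3 were called higher and 0 lower by edgeR, with a median log2 fold change of 0.31, 4 unadjusted p under 0.05 and 4 calls by DESeq2. In the fit omitting control replicate 3, 11 were called higher and 0 lower, with a median of 0.45. EIF3E, a subunit of the initiation factor eIF3, rose from 371 ± 29.3 to 818 ± 75.8 CPM (SD, n = 3; log2 fold change 1.14, edgeR adjusted p = 0.00482). EEF1D, an elongation factor subunit, and NACA, a chaperone of nascent chains, rose by 0.52 and 0.38 on the log2 scale (edgeR adjusted p = 0.0444 and 0.0476). Of 43 ribosome assembly factors, 1 was called higher and 6 lower, with a median of -0.01, which was 0.002 with upper-quartile scaling. Without control replicate 3, 12 were called higher and 18 lower, with a median of -0.07. RRP9, a protein of the U3 snoRNP, fell by 0.73 on the log2 scale, from 61.7 ± 4.17 to 37.1 ± 0.897 CPM (SD, n = 3, edgeR adjusted p = 0.00762). DKC1, the pseudouridine synthase of H/ACA snoRNPs, fell by 0.71, PPAN by 0.63 and NOC2L by 0.52, while DDX21, a nucleolar helicase, rose by 0.49. Of 15 RNA polymerase I subunits and factors, TAF1A was called lower (-0.64, edgeR adjusted p = 0.0234), with a median of -0.17, and without control replicate 3, 4 were called higher and 9 lower. Of 19 regulators of ribosomal protein synthesis, MYCN was called lower (-2.06, edgeR adjusted p = 0.028), from 3.69, 3.92 and 1.28 CPM to 0.641, 0.798 and 0.691 CPM. MYC, which drives transcription of ribosomal protein genes, had 19.5, 21.0 and 207 CPM against 112, 130 and 108 CPM, so that control replicate 3 was the highest library. Its fitted value was 0.50 (SE 0.91, edgeR adjusted p = 0.731), and without that library 2.496, called higher. In that fit 7 of the 19 regulators were called higher and 6 lower. The ribosomal protein chaperones GRWD1, BCCIP, HEATR3 and TSR2 lay between -0.12 and 0.25. By edgeR 0 of the 4 were called, with 0 unadjusted p under 0.05 and 0 calls by DESeq2. With control replicate 3 left out, GRWD1, HEATR3 and TSR2 were called lower, at -0.29, -0.23 and -0.21, and BCCIP was not called.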

How the data were processed

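The authors deposited whole-number read counts per Ensembl gene, without normalization, in one table whose 6 columns each belong to a library. Their methods give Salmon on hg38 for libraries of poly(A) RNA that keep the strand, the submitters' processing notes name STAR 2.7.10b and featureCounts 2.0.0 with hg38, and the labels name hg19. The annotation release, strand setting and treatment of multi-mapping reads are not given in the sources used here. Of 62754 genes, 60878 had a symbol. Genes passing filterByExpr (minimum count 10) were tested in edgeR 4.0.16 (R 4.3.3) by the two-sided quasi-likelihood F-test after TMM normalization, with Benjamini-Hochberg adjustment over 20992 genes and calls at an adjusted p of at most 0.05. CPM are TMM-scaled counts, and log2 CPM used a prior count of 2. On simulated data with changes of 3 log2 units either way, 192 of 200 changed genes were recovered, with 15 false calls among 20604 genes. These changes were larger than any fitted among the 77 genes, so the recovery of changes of their size was not tested. Alternatives were DESeq2 1.42.0, limma-voom (limma 3.58.1), other scalings and filters, pseudogene counts added, each library left out, and a replicate block. The members and lists were chosen with earlier results of these data known. Genes named were 20 chosen for their known roles, the 6 largest rises and falls, the 3 highest and lowest per kilobase, the 3 most different each way in control replicate 3, and up to 4 called genes per other list. Others named, such as the remaining called genes, DDX21, MYC and the genes given only in lists of names, were picked once their values had been seen. Start sites came from RefSeq (GRCh38.p14), coding sequences from GENCODE, and gene lengths and copies from GRCh37. Values of some genes are not reported here, and the figures omit 2 of the 77 genes. Raw reads were not analysed here.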

Additional observations from a re-analysis of the deposited data

How the results depend on the processing

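The count of 12 genes called by edgeR's quasi-likelihood test ranged from 1 to 53 when a library was left out, that of 11 genes called higher from 1 to 42 and that of 1 gene called lower from 0 to 11. The highest values came without control replicate 3 and the lowest total without knockout replicate 1 or 3. With the replicate number as a block, 1 gene was called, higher, and 0 lower, with 21 unadjusted p under 0.05 and 407 calls over all genes. Same-numbered libraries deviated from their group means with correlations of 0.01, 0.03 and -0.04. The distance of control replicate 3 enters every control deviation, so these values cannot show whether the numbers pair the libraries. Genes called lower numbered 2 with DESeq2, 7 with limma-voom and quantile normalization, 6 with library size without TMM, 2 with pseudogene counts added and 0 without a filter, where 24 genes had an unadjusted p under 0.05. The total stayed within 1.5 times of 12 in these settings, from 9 to 17. The median log2 fold change of the members was between 0.01 and 0.24 in all alternatives. The difference in the share of counts ran from -0.42 without control replicate 1 to 0.64 percentage points without control replicate 3, and was -0.17 without control replicate 2 and -0.06 without knockout replicate 1. Depth limited little, as RPS10, the gene with the lowest level, still had 199 to 529 counts per library.

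Some genes that were not called changed sign, and the cause was not tested. With library size without TMM, log2 fold changes were -0.011 for RPLP0, -0.086 for RPS3, -0.076 for RPS4X and -0.016 for RPS27, and with quantile normalization -0.10 for RPS3 and -0.21 for RPS4X. RPL41 was at 0.28 with pseudogene counts added. When a library was left out, log2 fold changes ran from -0.17 to 0.63 for RPLP0, -0.21 to 0.12 for RPLP2, -0.36 to 0.20 for RPSA, -0.44 to 0.042 for RPL22, -0.13 to 0.036 for RPL41, -0.16 to 0.22 for RPS3, -0.084 to 0.11 for RPS4X, -0.10 to 0.35 for RPS27, -0.68 to 0.18 for RPL15 and -0.10 to 0.45 for RPS10. Control replicate 1 or 3 was the library left out at both ends, except control replicate 2 at the upper end of RPL41 and RPS10.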
